A study of Mus musculus with 27 samples.

Results

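Cytochrome P450 enzymes are haem proteins, and in this report the family is the set of genes whose symbol starts with Cyp followed by a family number, a lower-case subfamily letter and a gene number. The symbol rule found 72 genes among the 18193 genes measured in mouse colon, each read by its probe set with 1 gene symbol and the highest mean over 27 arrays. Cyp51 and other symbols of a different form fall outside the rule. The arrays were hybridized with RNA of full-thickness colon, 1 array per sample, from 9 groups of 3. At 7, 9 and 12 weeks of age the groups were IL10-/- mice kept conventionally (CC, read by elimination from the codes, conventional knockouts below), IL10-/- mice kept specific pathogen free (SPF knockouts) and conventionally kept wild types. Il10 encodes an anti-inflammatory cytokine, and mice lacking it can develop colitis. The authors picked the 3 replicates of a group by colon length and damage, the strain and the knockout allele are not named in the labels, and no label tells if 1 sample holds 1 animal or several, so p-values measure only the spread between these samples. SPF wild types were not analysed here, and SPF knockouts therefore differ from the wild types in both genotype and housing.

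P450 enzymes of families 1 to 4 insert oxygen into drugs, plant compounds and fatty acids, using electrons passed from a reductase. Most other families act on the body's own sterols, bile acids, vitamin D, retinoic acid and steroid hormones. In the gut, the enzymes sit mainly in the epithelium, where they meet ingested compounds first, and several also turn arachidonic acid and leukotrienes into other signalling lipids. In rodents the drug-metabolizing subfamilies have expanded into clusters of similar genes, so a probe set of one Cyp2c or Cyp2d gene may also read RNA of a close copy, and values of these genes are uncertain in that respect.

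The promoters of 5 genes on which the results turn are printed so that genes with lower expression in knockouts (Cyp2c55, Cyp2c65 and Cyp2c68 of 1 gene cluster, and Cyp4b1) can be set beside the gene with the largest rise (Cyp4f18). Each runs 5′ to 3′ on the gene's strand from 250 bases before to 50 after the RefSeq start, a window of 300 bases in build GRCm38.p6. Capitals mark a match to a searched motif, as its reverse complement where the match lies on the opposite strand. Cyp2c55 lies at chr19:39006769-39007068 on the plus strand, and its neighbour Cyp2c65 at chr19:39060756-39061055 on the plus strand. Cyp2c68 lies at chr19:39741052-39741351 on the minus strand, Cyp4b1 at chr4:115647672-115647971 on the minus strand and Cyp4f18 at chr8:72009577-72009876 on the minus strand.
Cyp2c55: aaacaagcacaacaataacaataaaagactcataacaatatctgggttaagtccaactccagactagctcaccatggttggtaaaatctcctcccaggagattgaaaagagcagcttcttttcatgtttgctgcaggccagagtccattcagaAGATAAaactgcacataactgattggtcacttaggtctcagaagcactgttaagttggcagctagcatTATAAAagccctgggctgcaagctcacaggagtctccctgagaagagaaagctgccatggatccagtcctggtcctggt
Cyp2c65: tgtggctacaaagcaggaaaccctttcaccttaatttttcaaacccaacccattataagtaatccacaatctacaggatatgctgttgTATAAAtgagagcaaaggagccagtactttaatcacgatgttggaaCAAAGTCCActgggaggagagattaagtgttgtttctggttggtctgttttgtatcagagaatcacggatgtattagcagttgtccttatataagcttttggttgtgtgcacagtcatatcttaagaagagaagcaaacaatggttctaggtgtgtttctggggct
Cyp2c68: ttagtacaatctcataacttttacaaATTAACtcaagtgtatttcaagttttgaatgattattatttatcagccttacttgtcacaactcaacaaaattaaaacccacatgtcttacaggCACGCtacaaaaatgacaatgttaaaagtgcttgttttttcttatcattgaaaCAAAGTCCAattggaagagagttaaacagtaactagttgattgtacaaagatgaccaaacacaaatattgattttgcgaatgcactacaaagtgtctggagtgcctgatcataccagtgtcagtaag
Cyp4b1: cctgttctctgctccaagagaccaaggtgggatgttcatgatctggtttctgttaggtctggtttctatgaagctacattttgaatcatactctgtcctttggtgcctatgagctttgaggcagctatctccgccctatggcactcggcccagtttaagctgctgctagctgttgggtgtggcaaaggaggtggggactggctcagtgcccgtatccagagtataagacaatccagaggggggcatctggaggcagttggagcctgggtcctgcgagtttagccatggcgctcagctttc
Cyp4f18: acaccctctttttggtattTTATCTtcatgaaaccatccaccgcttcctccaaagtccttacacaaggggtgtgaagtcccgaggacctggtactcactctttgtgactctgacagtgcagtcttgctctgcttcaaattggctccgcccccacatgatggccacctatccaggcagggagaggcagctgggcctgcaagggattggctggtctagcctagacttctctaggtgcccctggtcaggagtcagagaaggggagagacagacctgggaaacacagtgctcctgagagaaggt

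Promoters of 51 of the 72 genes were matched in RefSeq, and 7 short motifs were searched on both strands. The motif TATAAA, the core of a TATA box, stood in 20 of the 51 promoters and in 14.2% of 27025 mouse promoters of the same length. In Cyp2c55 it starts at position -29 relative to the start site, and in Cyp2c65 at -162. The motif CAAAGTCCA, a site type bound by the liver and gut factor HNF4, stood in 6 of 51 promoters and in 0.477% of all. Cyp2c65 holds it at -116 and Cyp2c68 at -77, and they were the 2 genes that held it among the 18 with a promoter that were lower than wild type in some comparison, while 4 of 28 genes with no call held it. GTTAAT, the core of an HNF1 site, stood in 2 of 51 (7.2% of all), the GATA-factor site AGATAA in 10 (11.4%), and GCGTG, the core bound by the aryl hydrocarbon receptor, in 13 (32.5%). The ETS site AGGAAGT stood in 8 (9.57%) and an NF-kB site in 0 (0.385%). The Cyp4b1 window held none of the 7 motifs, and that of Cyp4f18 held the GATA site at -231. The matches within a printed window do not overlap, and a match is a string of letters, not a measured binding site. Promoters of gene copies can be alike, so matches in different genes need not be independent. Identity was 86.6% between Cyp2c37 and Cyp2c50, and 51.4% between Cyp2c65 and Cyp2c68.

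Expression is on the log2 scale, and each difference is the mean of 3 arrays minus the mean of 3 others, ± its SE, from limma fitted to all 27 arrays. A gene was called where its Benjamini-Hochberg adjusted p over all 18193 genes was under 0.05. Counts at an unadjusted p carry no share of all genes unless one is printed beside them, and are not results about the family. Over all arrays, 25 of the 72 genes had a mean above 5.25, the value below which the lowest 40% of genes lie, and 47 lay below it. In the 9 comparisons between kinds of mice of 1 age, 32 genes were called at least once and 40 never. The share of all genes called at least once was not counted, and 1 comparison alone called 34.8% of all genes. The 32 are thus not a result about the family. Of the 32, 25 were lower than wild type in some comparison, 6 were higher in some, and 0 were both. The low-signal genes supplied 10 of the 32, and 3 genes above 5.25 were never called (Cyp21a1, Cyp2e1 and Cyp4f14).

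Array medians lay between 4.92 and 4.99, and Spearman correlations between arrays between 0.94 and 0.995. Epithelial and smooth muscle markers, which define the labelled tissue, were high in every array. The mean of 6 epithelial genes lay between 12.25 and 12.54 in the 18 knockout arrays and between 12.09 and 12.49 in the 9 wild-type arrays. The leukocyte list (5 of 6 genes measured) averaged 7.81 to 8.68 in 9-week conventional knockouts and 5.82 to 7.63 in 9-week SPF knockouts, against 5.57 to 5.84 in 9-week wild types. In 12-week SPF knockouts it was 8.75, 6.95 and 9.46 in replicates 1 to 3, against 5.76 to 5.96 in wild types. Replicate 2 therefore stood nearer to wild type than replicates 1 and 3, and so it did for Cyp2c55, Cyp2c65, Cyp2c68, Cyp2d12, Cyp2d22, Cyp2d26, Cyp2f2, Cyp4b1 and Cyp4f18 below, but not for Cyp2e1. Wild-type 7-week replicates 1 and 2 stood apart too, with the liver transcript Alb at 10.4 and 9.15, against at most 6.21 in every other array.

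The 9-week comparison of conventional knockouts with wild types asks what an Il10 deletion changes in mice of the same housing. It called 3 P450 genes higher and 16 lower, 26.4% of 72, where 24% of all genes were called. The share called lower was 22.2% of the family and 9.86% of all genes, and the share called higher was 4.17% of the family and 14.2% of all genes. The median difference of the family was -0.15, against 0.00 over all genes. Of the 25 P450 genes with a mean above 5.25, 56.0% were called lower and 8.0% higher. Among all genes above 5.25 these shares were 13.5% and 20.5%. The median difference of the 25 was -0.76. Lower were Cyp2c54, Cyp2c68, Cyp2d9, Cyp2d10, Cyp2d12, Cyp2d13, Cyp2d22, Cyp2d34, Cyp2f2, Cyp2s1, Cyp2u1, Cyp4b1, Cyp4f13, Cyp4f16, Cyp20a1 and Cyp39a1, and higher were Cyp4f18, Cyp7b1 and Cyp2j6. Without conventional knockout replicate 1 the count was 9 of 72, and without replicate 2 it was 11. The 6 called genes with the largest differences (Cyp2c68, Cyp2f2, Cyp2d12, Cyp4b1, Cyp2d10 and Cyp2d22) stayed called in each of these fits.

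In SPF knockouts at 12 weeks, 3 P450 genes were higher and 18 lower than in wild types, 29.2% of 72 beside 34.8% of all genes. The share called lower was 25.0% of the family and 16.6% of all genes, and the share called higher was 4.17% and 18.2%. The median difference was -0.16, against 0.02 over all genes. Of the 25 P450 genes with a mean above 5.25, 64.0% were called lower and 4.0% higher. Among all genes above 5.25 these shares were 23.3% and 25.2%. The median difference of the 25 was -1.12. Lower were Cyp2c39, Cyp2c55, Cyp2c65, Cyp2c68, Cyp2d10, Cyp2d12, Cyp2d22, Cyp2d26, Cyp2f2, Cyp2j9, Cyp2s1, Cyp3a13, Cyp4b1, Cyp4f13, Cyp4f16, Cyp4v3, Cyp27a1 and Cyp39a1, and higher were Cyp4f18, Cyp1b1 and Cyp17a1. The spread within this SPF group was wide, and a fit of its arrays and the wild types alone called 4 genes (Cyp2c55, Cyp3a13, Cyp4b1 and Cyp27a1). Leaving out 1 of its arrays gave 16 calls (without replicate 1) to 28 (without replicate 2).

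At 9 weeks, 3 P450 genes (Cyp2d12, Cyp2f2 and Cyp4b1) were called lower in SPF knockouts than in wild types, 4.17% of 72 beside 4.43% of all genes called lower and 11.8% called at all. The call rested on SPF replicate 3, without which 0 were called, and without wild-type replicate 1 or 2 it was 1 gene. With only these 2 groups fitted none of the 3 was called (adjusted p = 0.0567 to 0.0633), and Cyp2d34 was (-0.54, adjusted p = 0.0351). Without the 12-week SPF replicate 2, which enters the estimate of the spread, 9 were called. Conventional and SPF knockouts of 9 weeks differed in 0 P450 genes, as in 0.0% of all genes (unadjusted, 3 were higher and 9 lower at p under 0.05). Among genes with a mean above 5.25, the unadjusted counts were 1 higher and 7 lower of 25 P450 genes. Over all 10916 genes above 5.25 they were 586 and 341. Conventional knockouts at 12 weeks differed from wild types in 0 P450 genes, where 0.451% of all genes were called, 0.264% as higher (unadjusted, 1 was higher and 2 were lower at p under 0.05). Among genes with a mean above 5.25, the unadjusted counts were 0 higher and 2 lower of 25 P450 genes. Over all 10916 genes above 5.25 they were 1129 and 1095. At 12 weeks conventional knockouts were higher than SPF knockouts in 19 genes and lower in 2, 29.2% of 72 beside 24.6% of all genes. For the 19 higher genes the share was 26.4%, beside 11.1% of all genes called higher. Of the 25 P450 genes with a mean above 5.25, 60.0% were called higher and 4.0% lower. Among all genes above 5.25 these shares were 16.2% and 19.4%. The 19 higher genes were Cyp2c39, Cyp2c55, Cyp2c65, Cyp2c68, Cyp2d10, Cyp2d12, Cyp2d22, Cyp2d26, Cyp2d34, Cyp2j9, Cyp2r1, Cyp2s1, Cyp3a13, Cyp4b1, Cyp4f13, Cyp4f16, Cyp26b1, Cyp27a1 and Cyp39a1, and the 2 lower ones were Cyp4f18 and Cyp7b1. A fit of these 2 groups alone called 0 of the 21, and without SPF replicate 3, SPF replicate 1 or conventional replicate 2 the counts were 5, 10 and 13.

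**Figure D1:**
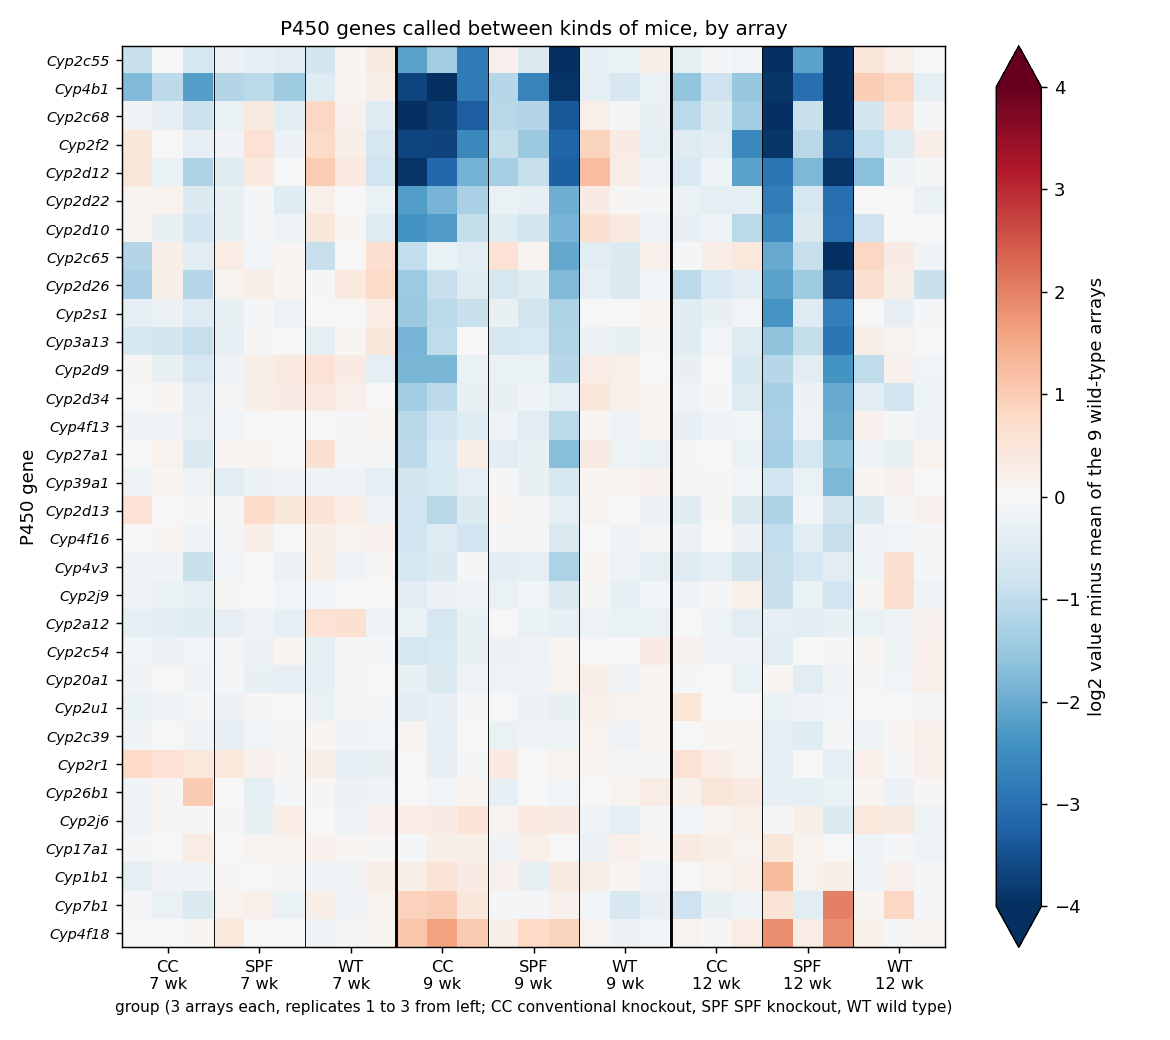
Expression of the 32 P450 genes called between kinds of mice, per array, as the log2 value minus the gene's mean over the 9 wild-type arrays (colour, from -4 in blue to 4 in red; rows are genes, columns the 27 arrays by age and group, conventional knockouts left of SPF knockouts and wild types). Blue columns gather in the 3 conventional knockouts of 9 weeks, in SPF replicate 3 of 9 weeks and in SPF replicates 1 and 3 of 12 weeks.

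Among the CYP2C genes, which oxidize drugs and make hydroxy and epoxy products of arachidonic acid, 2 of 11 were lower in conventional knockouts at 9 weeks and 4 of 11 were lower in SPF knockouts at 12 weeks. These are 18.2% and 36.4%, beside 9.86% and 16.6% of all genes. Cyp2c55, the member with the highest signal in the subfamily list (mean 11.84), is known in mice for its expression in the colon. In SPF knockouts of 12 weeks it was at 7.25, 10.82 and 4.92, against 13.40, 13.16 and 12.96 in wild types. All 3 knockout arrays lay below the wild types, replicate 3 furthest. The difference was -5.51 ± 0.96 (45.5-fold lower, limma adjusted p = 0.000236, or 0.0476 with only these 2 groups fitted). Without 1 of the SPF arrays it lay between -7.09 (without replicate 2) and -4.14 (without replicate 3). Conventional knockouts of 12 weeks, at 12.56, 12.87 and 12.85, were higher than the SPF knockouts by 5.10 ± 0.96 (34.3-fold, adjusted p = 0.00213). That call was lost with only these 2 groups fitted (adjusted p = 0.113).

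At 9 weeks Cyp2c55 was at 10.81, 11.56 and 10.12 in conventional knockouts and at 13.14, 12.38 and 8.87 in SPF knockouts, against 12.63, 12.69 and 13.20 in wild types. The conventional knockouts did not overlap the wild types, but their difference of -2.0 ± 0.96 missed the threshold (adjusted p = 0.137; 0.00364 with only these 2 groups fitted), and in the SPF group replicate 3 alone was below the wild types by more than 1 unit. Its neighbour Cyp2c65, another gut arachidonic acid enzyme, was at 8.64, 9.71 and 4.96 in SPF knockouts of 12 weeks, against 11.46, 10.96 and 10.50 in wild types. The groups did not overlap, and the difference was -3.20 ± 0.78 (adjusted p = 0.00288), or -1.80 without SPF replicate 3. Conventional knockouts of that age (10.58, 10.92 and 11.08) were higher than SPF knockouts by 3.09 ± 0.78 (adjusted p = 0.00714), which was not called without SPF replicate 3. In conventional knockouts of 9 weeks Cyp2c65 (9.67, 10.38 and 10.22) overlapped the wild types (10.22, 10.10 and 10.86), with a difference of -0.30 ± 0.78 (adjusted p = 0.825).

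Cyp2c68, from the same cluster on chromosome 19, was low in both settings. In conventional knockouts of 9 weeks it was at 5.50, 6.07 and 6.53, against 10.05, 9.78 and 9.55 in wild types. The groups were more than 3 units apart at their nearest arrays, and the difference was -3.76 ± 0.69 (13.6-fold lower, adjusted p = 0.000814). In SPF knockouts of 12 weeks it was at 4.95, 8.95 and 5.59, against 9.10, 10.35 and 9.75 in wild types. Replicate 2 lay just under the lowest wild type, and the difference was -3.24 ± 0.69 (adjusted p = 0.00114). At 12 weeks it was 2.33 ± 0.69 higher in conventional than in SPF knockouts (adjusted p = 0.0181), a call lost without SPF replicate 1 or 3. The low-signal relatives called as well were Cyp2c54 (-0.61 ± 0.15 in conventional knockouts of 9 weeks) and Cyp2c39 (-0.36 ± 0.12 in SPF knockouts of 12 weeks), and the liver gene Cyp2c70 was not. Cyp2c66, Cyp2c40, Cyp2c67 and Cyp2c69 stand in the same cluster in RefSeq but had no probe set of their own among those used.

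**Figure D2:**
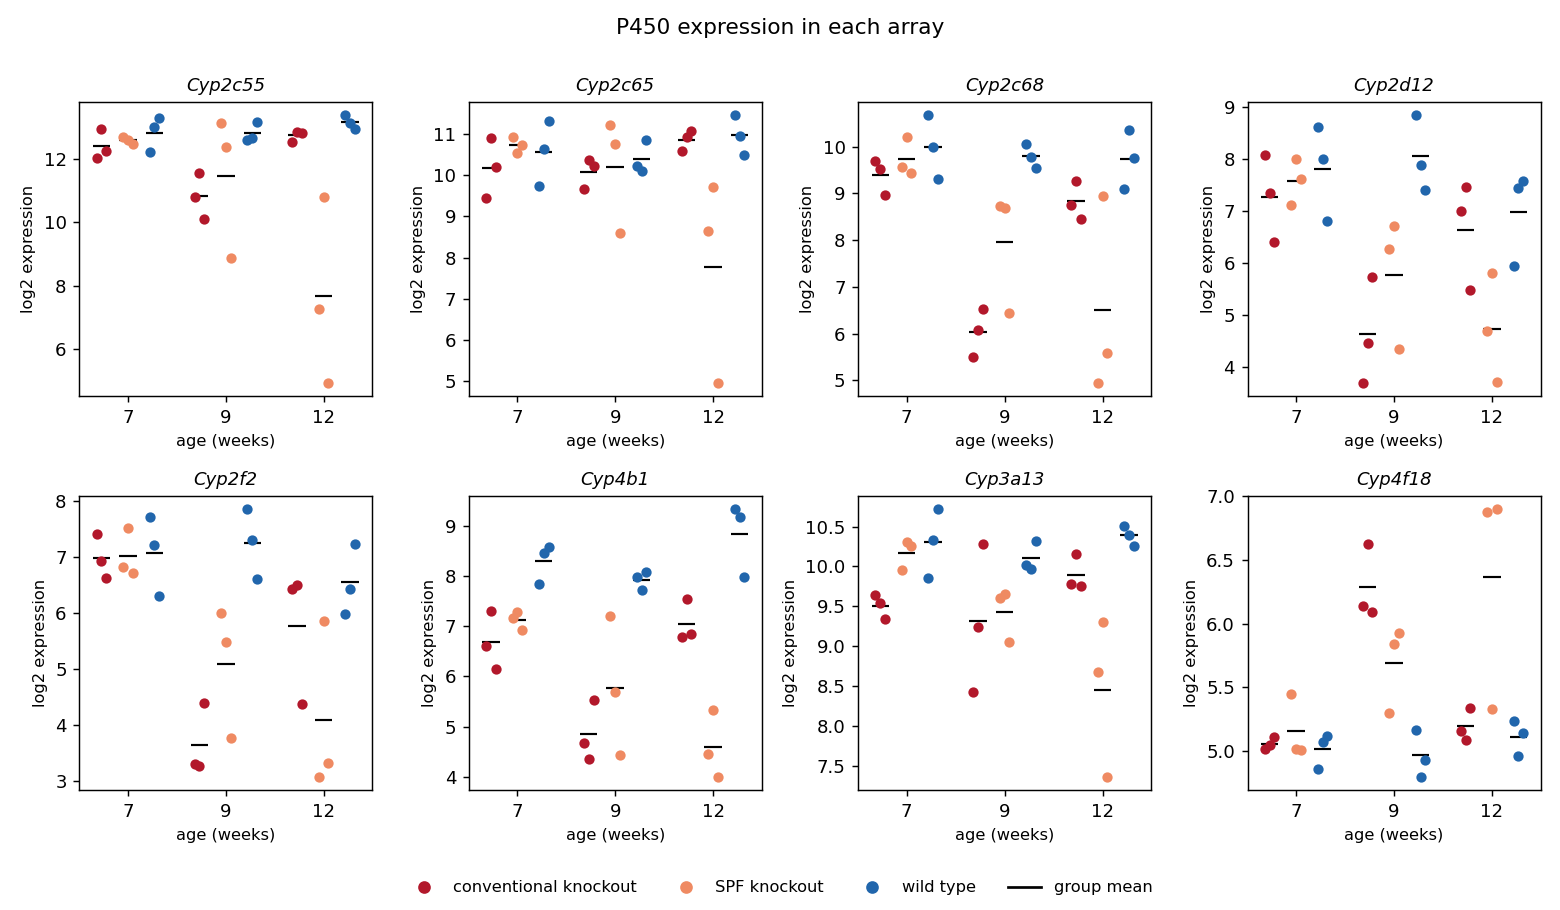
Expression of 8 P450 genes in each array (log2, vertical axis, own scale per panel) by age in weeks, with conventional knockouts left of SPF knockouts and wild types, points for arrays and bars for the mean of 3 arrays. Cyp2c55 in SPF knockouts of 12 weeks runs from 4.92 to 10.82, below wild types at 12.96 to 13.40, and Cyp4f18 shows the opposite direction.

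The CYP2D genes lie in 1 cluster on chromosome 15 and act on many drugs and on biogenic amines. In conventional knockouts of 9 weeks 6 of 8 were lower than in wild types (median of the 8 differences -1.32), and in SPF knockouts of 12 weeks 4 of 8 were lower (median -1.38). Over all genes, 9.86% and 16.6% were called lower in these comparisons. Cyp2d12 was at 3.70, 4.47 and 5.73 in conventional knockouts of 9 weeks and at 6.28, 6.71 and 4.35 in SPF knockouts, against 8.85, 7.90 and 7.42 in wild types. Neither knockout group reached the wild types, and the differences were -3.42 ± 0.69 for conventional knockouts (adjusted p = 0.00154) and -2.27 ± 0.69 for SPF knockouts (adjusted p = 0.0366). Wild types of 12 weeks varied more (5.94, 7.45 and 7.58), and SPF knockouts of that age (4.69, 5.82 and 3.71) differed from them by -2.25 ± 0.69 (adjusted p = 0.0147). Conventional knockouts of 12 weeks (7.01, 7.46 and 5.48) were 1.91 ± 0.69 above the SPF knockouts (adjusted p = 0.0481), although these groups overlapped and the call was lost in 18 of 33 other settings.

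Cyp2d10 was at 6.59, 6.71 and 8.02 in conventional knockouts of 9 weeks, against 9.61, 9.35 and 8.79 in wild types. Its difference was -2.14 ± 0.49 (adjusted p = 0.00341). Cyp2d22, a mouse relative of the human drug enzyme CYP2D6, was at 4.72, 5.09 and 5.64, against 7.26, 7.00 and 6.89 (-1.90 ± 0.44, adjusted p = 0.00366). Both were without overlap, and a second Cyp2d22 probe set differed by -1.50. In SPF knockouts of 12 weeks Cyp2d22 was at 4.18, 6.26 and 3.93, and conventional knockouts of that age, at 6.69, 6.57 and 6.54, were higher by 1.81 ± 0.44 (adjusted p = 0.00576). Cyp2d26 was at 6.38, 7.12 and 4.90 in SPF knockouts of 12 weeks, against 9.14, 8.76 and 7.64 in wild types (-2.38 ± 0.47, adjusted p = 0.000594), but its difference in conventional knockouts of 9 weeks was -0.61 ± 0.47 (adjusted p = 0.379). Cyp2d34, with the highest signal in the list (mean 8.56), and Cyp2d9 were lower in conventional knockouts of 9 weeks, by -1.17 ± 0.30 and -1.47 ± 0.43. Cyp2d13, which RefSeq annotates as a transcribed pseudogene, differed by -0.76 ± 0.28 (adjusted p = 0.0479), a call lost in 16 of 33 other settings. Cyp2d40 was called in none of the 9 comparisons.

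Cyp2f2, known from mouse lung for activating naphthalene, was the only 1 of 7 genes of the CYP2A, CYP2B, CYP2F and CYP2G list called at 9 or 12 weeks. It was at 3.30, 3.27 and 4.39 in conventional knockouts of 9 weeks and at 6.0, 5.49 and 3.77 in SPF knockouts, against 7.86, 7.30 and 6.61 in wild types. All 6 knockout arrays lay below the 3 wild types. The difference was -3.60 ± 0.66 in conventional knockouts (12.2-fold lower, adjusted p = 0.000787) and -2.17 ± 0.66 in SPF knockouts (adjusted p = 0.0369). At 12 weeks SPF knockouts (3.08, 5.86 and 3.32) were also lower than wild types (5.98, 6.44 and 7.23), with a difference of -2.46 ± 0.66 (adjusted p = 0.0061), a call lost without SPF replicate 1. At 7 weeks Cyp2a12, a liver steroid hydroxylase with low signal here, was 3.77, 3.68 and 3.63 in conventional knockouts, against 4.70, 4.74 and 3.94 in wild types (-0.77 ± 0.17, adjusted p = 0.0343). Its high values were those of wild-type replicates 1 and 2, the arrays high in Alb, and without both the difference was -0.25 (adjusted p = 0.804). The same 2 arrays had the highest values of the liver genes Cyp1a2 (5.78 and 4.01) and Cyp2c70 (5.52 and 5.16), neither of which was called. The Cyp2a12 call and the vitamin D gene Cyp2r1 were the 2 of 72 called at 7 weeks, where 0.506% of all genes were called between conventional knockouts and wild types. In both other comparisons at 7 weeks 0 were called (0.055% of all genes for SPF knockouts against wild types, 0.033% higher and 0.022% lower, and 0.269% for conventional against SPF knockouts). At an unadjusted p under 0.05, SPF knockouts had 1 P450 gene higher and 4 lower than wild types, and conventional knockouts had 2 higher and 2 lower than SPF knockouts. Among the 25 P450 genes with a mean above 5.25, these counts were 0 and 1, and 0 and 0. Over all 10916 genes above 5.25 they were 465 and 123, and 434 and 279. Without any 1 of the 3 conventional arrays, or wild-type replicate 2, the count of 2 was 0. With only conventional knockouts and wild types of 7 weeks fitted, Cyp2a12 and Cyp2r1 were not called (limma adjusted p = 0.148 and 0.128). Cyp2e1 and Cyp4b1 were called in that fit.

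Cyp4b1, a fatty acid hydroxylase that also activates plant furan toxins, was the P450 gene with the smallest adjusted p in SPF knockouts of 12 weeks. There it was at 4.46, 5.34 and 4.0, against 9.34, 9.19 and 7.98 in wild types, a difference of -4.24 ± 0.50 (18.9-fold lower, adjusted p = 6.48e-06). At 9 weeks it was at 4.68, 4.35 and 5.54 in conventional knockouts and at 7.20, 5.69 and 4.44 in SPF knockouts, against 7.98, 7.73 and 8.09 in wild types. The differences were -3.08 ± 0.50 in conventional knockouts (adjusted p = 0.000259) and -2.16 ± 0.50 in SPF knockouts (adjusted p = 0.0088, or 0.0633 with only the 2 groups fitted). Its values in 7-week conventional knockouts (6.60, 7.30 and 6.15) and SPF knockouts (7.17, 7.28 and 6.93) also lay below the wild types (7.84, 8.47 and 8.58), without a call (adjusted p = 0.203 and 0.907; for conventional knockouts 0.048 with only the 2 groups fitted). Conventional knockouts of 12 weeks (6.78, 7.54 and 6.85) lay 2.46 ± 0.50 above the SPF knockouts (adjusted p = 0.00263, or 0.0957 with only the 2 groups fitted). They lay below the wild types as well, without a call (adjusted p = 0.0947). Every one of the 18 knockout arrays (4.0 to 7.54) was thus below every one of the 9 wild-type arrays (7.73 to 9.34). Cyp4b1 was the 1 P450 gene with this separation, which 13 of 18193 genes (0.0715%) showed in this direction and 43 (0.236%) in the other.

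In the CYP4F list, whose enzymes shorten the action of leukotrienes by adding a hydroxyl group, 1 of 7 genes rose and 2 fell both in conventional knockouts of 9 weeks and in SPF knockouts of 12 weeks. Over all genes, 14.2% and 18.2% were called higher and 9.86% and 16.6% lower in these comparisons. Cyp4f18, which in mice acts on leukotriene B4 in neutrophils, had the largest rise of the family and is described for that reason, chosen after its values were seen. It was at 6.14, 6.63 and 6.09 in conventional knockouts of 9 weeks, against 5.17, 4.80 and 4.93 in wild types (1.32 ± 0.27, adjusted p = 0.0017). In SPF knockouts of 12 weeks it was at 6.88, 5.33 and 6.90, against 5.24, 4.96 and 5.14 in wild types (1.25 ± 0.27, adjusted p = 0.00121). SPF replicate 2 was only just above the wild types. Within those 3 SPF arrays its order ran with that of the neutrophil transcript S100a8, at 12.06, 7.41 and 13.34, against 3.49, 3.71 and 3.55 in wild types. Over other arrays the order broke. SPF replicate 2 of 9 weeks had Cyp4f18 at 5.84 with S100a8 at 4.63, above the 5.33 of SPF replicate 2 of 12 weeks. The part of neutrophils in the Cyp4f18 signal was not tested. A second, dim Cyp4f18 probe set (mean 3.53) differed by -0.10 and -0.15 in the same comparisons, so the rise rests on 1 probe set. Cyp4f13 and Cyp4f16 fell in both, with differences of -0.80 and -0.63 in conventional knockouts of 9 weeks and -1.14 and -0.66 in SPF knockouts of 12 weeks. Cyp4f14, the brightest of the list (mean 8.88), was not called in any comparison. Cyp4v3 (mean 6.81) was lower in SPF knockouts of 12 weeks (-0.79 ± 0.24), and the 3 CYP4A genes, fatty acid hydroxylases of liver and kidney, were all dim (the brightest, Cyp4a31, at a mean of 3.15) and not called.

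**Figure D3:**
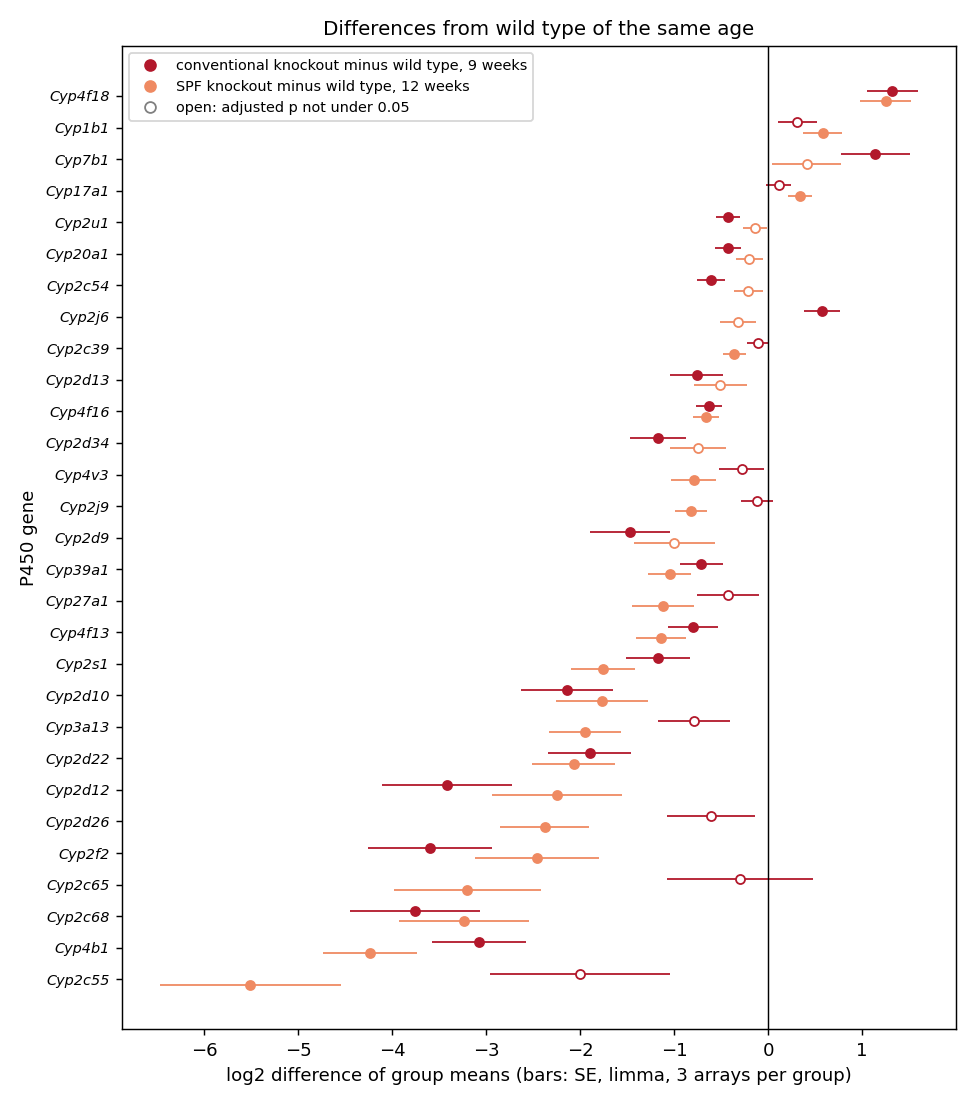
Differences of group means from wild types of the same age (log2, horizontal axis; bars are SE from limma, 3 arrays per group) for the P450 genes called in either comparison, with conventional knockouts of 9 weeks in red above SPF knockouts of 12 weeks in orange, and open points for an adjusted p not under 0.05. Most filled points lie left of 0, down to -5.51 for Cyp2c55, and Cyp4f18 is right of 0 in both.

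Cyp3a13, a drug-metabolizing member of the CYP3A subfamily and its brightest gene here (mean 9.73), averaged 8.44 in SPF knockouts of 12 weeks, against 10.39 in wild types. It was lower (-1.95 ± 0.38, adjusted p = 0.00051), while the other 4 CYP3A genes were dim and not called. Cyp2s1, an enzyme of epithelia outside the liver (mean 9.27), was lower in conventional knockouts of 9 weeks (-1.17 ± 0.34) and in SPF knockouts of 12 weeks (-1.76 ± 0.34). Cyp2e1, which oxidizes ethanol and is known from liver and fat, had arrays chosen here after their values were seen. It ranged from 4.04 to 8.29 over arrays and was not called. With only conventional knockouts and wild types of 7 weeks fitted, it was called lower in the knockouts (-1.58, limma adjusted p = 0.0382). Its 3 highest arrays (8.29 in conventional replicate 3 of 9 weeks, 7.94 in SPF replicate 2 of 12 weeks and 7.77 in SPF replicate 1 of 9 weeks) had Adipoq, the fat cell hormone gene, at 6.87, 8.28 and 8.59. Its 2 lowest (4.04 in SPF replicate 2 of 9 weeks and 4.14 in SPF replicate 2 of 7 weeks) had Adipoq at 3.36 and 3.38; the part of fat cells was not tested. Cyp2u1, a fatty acid hydroxylase with low signal, was lower in conventional knockouts of 9 weeks (-0.43 ± 0.13).

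Of the 5 CYP2J genes, whose enzymes epoxidize arachidonic acid, Cyp2j6 (mean 7.75) was higher in conventional knockouts of 9 weeks by 0.57 ± 0.19 (adjusted p = 0.0283), with 0.11 at its second probe set. Its call was lost without any 1 of the 3 conventional arrays. Cyp2j9 was lower in SPF knockouts of 12 weeks (-0.82 ± 0.17, adjusted p = 0.00109). The CYP1 genes, classic targets of the aryl hydrocarbon receptor, were all dim. Cyp1b1 (mean 3.68) was higher in SPF knockouts of 12 weeks by 0.58 ± 0.21 (adjusted p = 0.039), but not at its 2 other probe sets (0.02 and -0.02), and without SPF replicate 1 the difference was 0.21 and not called.

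Among the 6 genes of sterol and bile acid metabolism, Cyp27a1, which oxidizes the sterol side chain (mean 7.74), was lower in SPF knockouts of 12 weeks (-1.12 ± 0.33, adjusted p = 0.011). Cyp39a1, an oxysterol hydroxylase, was lower in them (-1.05 ± 0.23) and in conventional knockouts of 9 weeks (-0.71 ± 0.23). Cyp7b1, another oxysterol hydroxylase, moved the other way, averaging 5.54 in conventional knockouts of 9 weeks, against 4.40 in wild types (1.14 ± 0.37, adjusted p = 0.0276). Its other probe sets differed by 0.98 and -0.04, and the call was lost without conventional replicate 1 or 2. At 12 weeks it was lower in conventional than in SPF knockouts (-1.14 ± 0.37, adjusted p = 0.0268), a call lost without SPF replicate 1 (-1.24) or 3 (-0.49). Cyp7a1 and Cyp8b1, the liver enzymes of bile acid synthesis, and the brain enzyme gene Cyp46a1 were not called.

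Of the 3 vitamin D genes, the activating Cyp2r1 was higher in conventional knockouts of 7 weeks (3.86, 3.64 and 3.48) than in wild types (3.31, 2.75 and 2.79), by 0.71 ± 0.16 (adjusted p = 0.0448), and higher by 0.58 ± 0.16 in conventional than in SPF knockouts of 12 weeks (adjusted p = 0.0115). Its highest value over all arrays was 3.86, and the 7-week difference was 0.87 without both wild-type arrays high in Alb (adjusted p = 0.225); the 7-week call was lost in 18 of 33 other settings. Cyp24a1 (mean 3.65), which inactivates vitamin D, and Cyp27b1 were not called. Of the 2 genes that clear retinoic acid, Cyp26b1 (mean 4.09) was higher by 0.66 ± 0.20 in conventional than in SPF knockouts of 12 weeks. Of the 5 steroid hormone genes, Cyp17a1 was higher in SPF knockouts of 12 weeks than in wild types by 0.34 ± 0.13 (adjusted p = 0.0455), a call lost in 15 of 32 other settings, and Cyp21a1 (mean 5.54) was not called. Cyp20a1, an enzyme without a settled substrate (mean 8.05), was lower in conventional knockouts of 9 weeks (-0.43 ± 0.14), but its 2 other probe sets differed by 0.37 and 0.27, and the mean of its probe sets by 0.07.

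Genes lower in conventional knockouts of 9 weeks were set beside those lower in SPF knockouts of 12 weeks. The group means of these comparisons share no arrays. Both comparisons took each gene's spread from the same fit of all arrays, so their calls are not independent. The lists had 10 genes in common, 62.5% of the 16 of the first list and 55.6% of the 18 of the second. Over all genes, 1323 were lower in both, 73.8% of the 1793 of the first list and 43.8% of the 3024 of the second. The 10 P450 genes in common were Cyp2c68, Cyp2d10, Cyp2d12, Cyp2d22, Cyp2f2, Cyp2s1, Cyp4b1, Cyp4f13, Cyp4f16 and Cyp39a1. Whether the differences themselves differ between these settings was not tested.

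Between ages, conventional knockouts of 9 weeks had 1 P450 gene higher and 9 lower than those of 7 weeks, 13.9% of 72 beside 10.4% of all genes. Cyp2c68 (-3.36 ± 0.69), Cyp2f2 (-3.34 ± 0.66), Cyp2d12, Cyp4b1, Cyp2d22, Cyp2d10, Cyp2d13, Cyp2r1 and Cyp4f16 were lower and Cyp4f18 was higher. From 9 to 12 weeks 5 were higher (Cyp2c68, Cyp4b1, Cyp2d22, Cyp4f16 and Cyp2u1) and 2 lower (Cyp4f18 and Cyp7b1), 9.72% of 72 beside 7.34% of all genes (1.94% higher and 5.4% lower). Groups of different ages are different mice, and age and collection cannot be told apart. The calls of Cyp2d10 (9 against 7 weeks), Cyp2d22 and Cyp7b1 (12 against 9 weeks) were lost in 11 of 33, 20 of 33 and 20 of 32 other settings. The count of 10 was 4 or 5 without conventional replicate 1 or 2 of either age. The count of 7 was 0 or 1 without conventional replicate 1 or 2 of either age, 4 without 9-week wild-type replicate 2, 14 without 9-week conventional replicate 3 and 17 without 12-week SPF replicate 2. In SPF knockouts 0 were called for 9 against 7 weeks (0.726% of all genes, 0.258% lower, and 8 P450 genes lower at an unadjusted p under 0.05) and 0 for 12 against 9 weeks (0.0% of all genes, and 4 higher and 16 lower unadjusted). Without SPF replicate 2 of 12 weeks or replicate 3 of 9 weeks 12 against 9 weeks had 22 and 7 calls. In wild types 0 were called for 9 against 7 weeks (0.0055% of all genes; 1 higher and 3 lower unadjusted) and 0 for 12 against 9 weeks (0.0% of all genes; 1 higher and 1 lower). The change of the difference between conventional knockouts and wild types was called for 0 P450 genes from 7 to 9 weeks (2.01% of all genes, 1.11% higher and 0.901% lower) and for 0 from 9 to 12 weeks (1.82%). The smallest adjusted p in the first was that of Cyp2r1 (-0.85 ± 0.23, adjusted p = 0.0515), followed by Cyp2f2 (-3.52 ± 0.94, adjusted p = 0.0519), and in the second that of Cyp7b1 (-1.87 ± 0.52, adjusted p = 0.0605). For SPF knockouts and wild types it was called for 0 from 9 to 12 weeks (0.0% of all genes). At an unadjusted p under 0.05 these 3 tests had 18, 14 and 12 P450 genes, and the unadjusted share of all genes is not given here.

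Genes that work with P450 enzymes or beside them were counted from 3 lists. Over all genes, 14.2% were called higher and 9.86% lower in conventional knockouts of 9 weeks than in wild types. For SPF knockouts these shares were 7.41% and 4.43% at 9 weeks, and 18.2% and 16.6% at 12 weeks. Of 7 measured genes of electron transfer and haem supply, conventional knockouts of 9 weeks had Alas1, which starts haem synthesis (0.96 ± 0.19), and Hmox1, which breaks haem down (0.96 ± 0.25), higher and the haem-binding P450 partner Pgrmc1 lower (-0.50 ± 0.15). SPF knockouts of 12 weeks had the same 3 called in the same directions (Alas1 0.77 ± 0.19, Hmox1 0.83 ± 0.25 and Pgrmc1 -0.92 ± 0.15). Of 13 receptors and factors that sense foreign compounds, sterols and fatty acids, the bile acid receptor gene Nr1h4 was higher at 9 weeks in conventional knockouts (0.96 ± 0.17) and in SPF knockouts (1.00 ± 0.17), with 0 of 13 lower. In SPF knockouts of 12 weeks 3 of 13 were lower, the fatty acid receptor gene Ppara (-2.45 ± 0.50), the vitamin D receptor gene Vdr (-1.02 ± 0.22) and the oxidative stress factor gene Nfe2l2 (-0.51 ± 0.15). Of 14 measured oxidases and hydrolases outside the P450 family, 6 were lower in conventional knockouts of 9 weeks, among them Fmo4 (-1.24 ± 0.23), Adh1 (-1.99 ± 0.45) and Fmo1 (-1.33 ± 0.33), and 0 higher. In SPF knockouts of 12 weeks 11 of 14 were lower, among them the epoxide hydrolase gene Ephx2 (-1.41 ± 0.20), the carboxylesterase gene Ces1d (-3.07 ± 0.47) and the retinal dehydrogenase gene Aldh1a1 (-2.03 ± 0.37).

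Markers of cell types were counted in the same comparisons, so the shares of all genes given for the partner lists apply here too. Of 6 surface colonocyte genes, 2 were lower (Slc26a3 and Car4) and 1 higher (Krt20) in conventional knockouts of 9 weeks, and 4 were lower in SPF knockouts of 12 weeks (among them Slc26a3, Car1 and Aqp8). The mean of the list was 11.20, 11.09 and 11.59 in conventional knockouts of 9 weeks, against 11.93 to 11.99 in wild types. It was 10.24, 11.88 and 9.94 in SPF knockouts of 12 weeks, against 11.60 to 11.93 in wild types, so replicates 1 and 3, the lowest in Cyp2c55, were also the lowest in this list. In SPF replicate 3 of 9 weeks, where Cyp2c55 was 8.87, Cyp2c68 6.45 and Cyp4b1 4.44, the list mean was 11.89, beside 12.01 and 11.81 in the other SPF replicates and 11.93 to 11.99 in wild types. That mean joins genes that moved in opposite directions. Slc26a3 (12.11), Car4 (11.99), Aqp8 (10.21) and Car1 (13.38) were below every 9-week wild type in this array. Krt20 (13.12) and Ceacam20 (10.54) were above every one. The general epithelial list had 1 of 6 genes lower at 9 weeks and 0 of 6 changed at 12 weeks in the same comparisons. Leukocyte genes were higher in 5 of 5 and 4 of 5 cases, with S100a8 6.98 ± 1.12 and 7.35 ± 1.12 higher. Smooth muscle genes were lower in 4 of 6 and 6 of 6 cases. Hepatocyte genes had 1 of 5 lower (Ttr) at 9 weeks, and 1 lower (Ttr) and 1 higher (Tat) at 12 weeks, pancreatic acinar genes had 2 of 5 lower in both (Clps and Cela1), and adipocyte genes had 0 of 3 called in both (1 and 0 of 3 at an unadjusted p under 0.05). The acinar genes Cpa1, Ctrb1 and Prss2 were high in SPF replicate 3 of 12 weeks (4.94, 6.58 and 7.32). Wild types of that age had at most 3.71, 3.74 and 5.5. Wild-type replicate 1 of 7 weeks was high in them too (7.0, 7.0 and 7.99). The part of pancreatic RNA in these arrays was not tested. In whole colon, fewer cells of a type and less RNA per cell cannot be told apart, and the part of cell composition in the P450 differences was not tested.

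**Figure D4:**
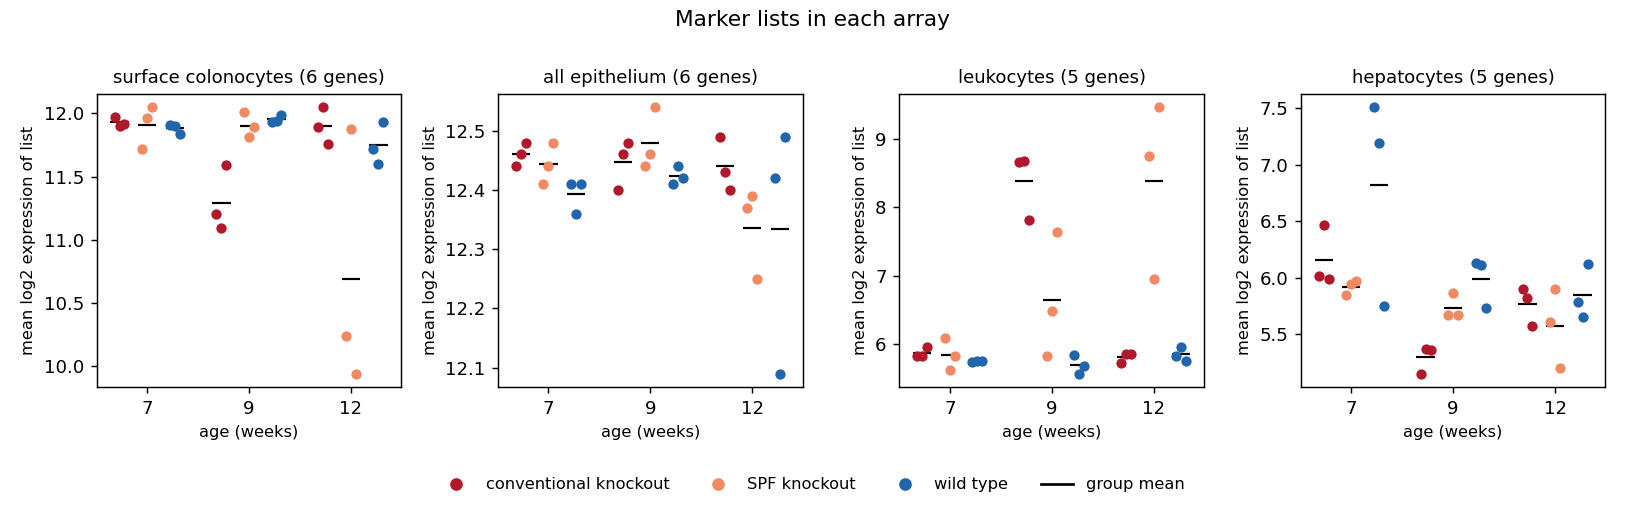
Mean log2 expression (vertical axis, own scale per panel) of 4 marker lists in each array by age in weeks, with conventional knockouts left of SPF knockouts and wild types, points for arrays and bars for the mean of 3 arrays. Surface colonocyte markers are low in conventional knockouts of 9 weeks (11.09 to 11.59) and in 2 SPF knockouts of 12 weeks (10.24 and 9.94), where leukocyte markers are high, and hepatocyte markers are high in 2 wild types of 7 weeks (7.51 and 7.19).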

How the data were processed

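RNA of full-thickness mouse colon was read on an Affymetrix mouse array, 1 array per sample, although the series' design text names a rat array. Per the series' design text, the authors normalized with the affyPLM package. Their deposited table holds 1 log2 value for each probe set and array, from 2.10 to 14.25. Its version, background step and genome build are not stated there. Precision is limited by how many arrays a group has.

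Of 45101 probe sets, 64 control probe sets, 932 with several gene symbols and 9160 with none were left out, and 34945 gave 18193 genes, each by its probe set with the highest mean. The 72 P450 genes had 95 such probe sets, and 4 more with several symbols were left out. limma (3.58.1, R 4.3.3) fitted 9 group means with eBayes, testing both directions, for 9 comparisons between kinds of mice, 6 between neighbouring ages and 3 of differences. The members, role groups, partner and marker lists and tests were chosen with earlier results of these data known. By rule all called P450 genes were named, with array values for at most the 6 largest differences per comparison and the level of the brightest gene of each role group; exceptions are stated. Replicates share numbers in the labels, but 4 of 27 same-numbered pairs correlated above 0.1, so the numbers were not used as pairs. Differently numbered pairs were not correlated, so this check cannot tell if a number marks shared processing. The fit was tested on simulated data. Alternatives were a replicate block, quantile normalization again, leaving out low genes, averaging probe sets per gene, array weights, only the groups compared, a minimum difference and leaving out each array. Added after seeing the data was a fit without the 2 wild-type arrays high in Alb. Promoters are from RefSeq. Python 3.11.15 (pandas 2.3.3) wrote the tables, and matplotlib 3.10.9 drew the figures.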

Additional observations from a re-analysis of the deposited data

How the results depend on the processing

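Of the 66 calls of single P450 genes between kinds of mice, 12 held in every alternative fit that included the gene. The other 54 were lost in at least 1. The minimum difference of 1 was applied to counts only, and a dim gene absent from the fit without low genes was not counted as lost. The 12 therefore include Cyp2c54 (-0.61, dim) and Cyp4f16 (-0.63) in conventional knockouts against wild types at 9 weeks, both smaller than that minimum. The cause of each change was not tested. One reversed: Cyp20a1 in conventional knockouts against wild types at 9 weeks was 0.07 with the mean of its probe sets. Counts of called P450 genes moved by more than 1.5 times as follows. Conventional knockouts against wild types at 7 weeks had 2, and 1 with quantile normalization again, 0 without low genes, 4 with array weights, 0 with a minimum difference of 1 and 0 without both wild-type arrays high in Alb. At 9 weeks the minimum difference left 11 of 19. SPF knockouts against wild types at 9 weeks had 3, and 21 with array weights and 1 with only the groups compared (Cyp2d34, none of the 3). At 12 weeks they had 21, and 4 with only the groups compared. Conventional against SPF knockouts had 0 at 7 weeks and 1 with only the groups compared, 0 at 9 weeks and 18 with array weights, and 21 at 12 weeks, with 0 for only the groups compared and 13 for the minimum difference. Within conventional knockouts, 9 against 7 weeks had 10, and 21 with array weights and 17 with only the groups compared, and 12 against 9 weeks had 7, and 2 with the mean of probe sets, 26 with array weights and 12 with only the groups compared. Within SPF knockouts, array weights gave 16 for 9 against 7 weeks and 31 for 12 against 9 weeks, where 0 were called. The differences of differences had 0 each. The first (conventional minus wild type, 9 minus 7 weeks) had 1 with the replicate block, 1 with quantile normalization again, 1 without low genes, 14 with array weights and 10 with only the groups compared. The second (12 minus 9 weeks) had 15 with array weights and 12 with only the groups compared, and the third (SPF minus wild type, 12 minus 9 weeks) had 14 with array weights. Shares of all genes called under these alternatives, or without single arrays, are not given here, so the counts are not results about the family.

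Leaving out each array gave counts of 0 to 3 for conventional knockouts and 0 to 3 for SPF knockouts against wild types at 7 weeks, and 0 to 0 between knockouts. At 9 weeks these ranges were 9 to 21, 0 to 9 and 0 to 1, and at 12 weeks 0 to 1, 16 to 28 and 5 to 24. Between ages they were 4 to 15 and 0 to 17 in conventional knockouts, 0 to 1 and 0 to 22 in SPF knockouts, and 0 to 1 and 0 to 0 in wild types. For the 3 differences of differences they were 0 to 8, 0 to 11 and 0 to 15. The replicate block gave 18 calls in place of 19 at 9 weeks (conventional knockouts and wild types) and 20 in place of 21 for conventional against SPF knockouts at 12 weeks. The replicate numbers were not used as pairs, and losses under the block are included in the counts of settings that lost a call. In all, 528 of the counts under alternatives stayed within 1.5 times and 88 did not. Low signal limits the 47 dim genes, of which 10 were called.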

Other observations

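Wild types also varied among themselves in genes that were low in knockouts. Wild-type replicate 1 of 7 weeks had Cyp2d12 at 8.62 and Cyp2c68 at 10.67, with Cyp2c55 at 12.22 and Cyp2c65 at 9.74. That array was also high in Alb (10.4) and the pancreatic gene Prss2 (7.99), and the part of these tissues in its P450 values was not tested. Wild-type replicate 1 of 12 weeks had Cyp2d12 at 5.94 and Cyp2c68 at 9.10, with Cyp2c55 at 13.40 and Cyp2c65 at 11.46. In these 2 arrays the first pair of genes and the second pair thus ran in opposite directions, whereas both pairs were low in SPF replicates 1 and 3 of 12 weeks (Cyp2d12 4.69 and 3.71, Cyp2c68 4.95 and 5.59, Cyp2c55 7.25 and 4.92, Cyp2c65 8.64 and 4.96). These arrays were chosen after their values were seen, and no test was made.

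In conventional knockouts of 12 weeks, replicate 3 had the lowest values of Cyp2f2 (4.38, others 6.44 and 6.50) and Cyp2d12 (5.48, others 7.01 and 7.46), while its leukocyte marker mean was 5.86, within the wild-type range of 5.76 to 5.96 at that age, and its Cyp2c55 was 12.85. Ttr, a gene of the hepatocyte list, was low beside these genes. It was at 5.95, 7.05 and 7.77 in conventional knockouts of 9 weeks, against 10.56, 10.27 and 9.87 in wild types, and at 6.04, 8.95 and 5.87 in SPF knockouts of 12 weeks, against 9.59, 9.66 and 10.56 in wild types, while Alb was at most 4.81 in these 4 groups.

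Along the Cyp2c cluster on chromosome 19, the called genes with high signal (Cyp2c55, Cyp2c65 and Cyp2c68) stand at places 2, 3 and 11 of 19 in RefSeq order, with dim genes between and after them.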
